A study of Mus musculus with 33 samples.

Results

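Histone genes were examined in subcutaneous Myc-CaP tumours of mice given ESK981, an antibody against PD-1, or both. The genes were the protein-coding entries of the deposited table whose symbols begin with Hist1h to Hist4h, H2af, H3f3 or H1f, kept where at least 5 of the 33 tumours had at least 0.5 FPKM (fragments per kilobase of exon, scaled to library depth). Of 83 such symbols 71 were kept, out of 15846 genes tested in all. The kept genes were 62 replication-dependent histone genes, named Hist, and 9 variant histone genes. The replication-dependent genes encoded 5 H1, 17 H2A, 16 H2B, 11 H3 and 13 H4 proteins, and 49 of them lay on chromosome 13, 8 on chromosome 3, 2 on chromosome 11 and 1 on chromosome 6, with 2 not placed. The variants were H1f0, H1fx, H2afj, H2afv, H2afx, H2afy, H2afz, H3f3a and H3f3b.

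Histones wrap DNA into nucleosomes, and H1 binds the linker between them. The replication-dependent genes are transcribed in S phase, lack introns in most cases, and make mRNAs that end in a stem-loop instead of a poly(A) tail. The stem-loop binding protein SLBP holds that end and is needed for processing, translation and decay of the mRNA, so its level normally follows DNA synthesis. Variant histones are made in and outside S phase from polyadenylated mRNAs and are placed by chaperones of their own. The exception is H2afx, whose mRNA can take either end.

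All mice were male FVB mice carrying Myc-CaP cells, a prostate cancer line from a mouse in which a probasin promoter drives human MYC, on both flanks. The groups were ESK981 (8 tumours, 5 mice), both agents, or the combination (8 tumours, 5 mice), anti-PD-1 (7 tumours, 5 mice) and vehicle (10 tumours, 5 mice). ESK981, which blocks several kinases and PIKfyve, or its vehicle was given by mouth at 15 mg/kg on 5 days a week. Anti-PD-1 or an isotype control was injected at 200 µg per mouse 3 times a week, from a tumour volume of 50 mm3, and tumours were taken after 3 weeks. The libraries were made from total RNA after removal of ribosomal RNA, so mRNAs without a poly(A) tail are in them. The mouse was the replicate, and tumours are named by a mouse number within the group, which pairs nothing across groups, and by flank (L or R).

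The libraries differed in depth (9.90 to 32.4 M fragments). Vehicle tumours were the shallowest (9.90 to 18.4 M, against 18.1 to 32.4 M with ESK981, 17.8 to 24.8 M with the combination and 11.3 to 24.2 M with anti-PD-1). Per the column headers, 1 flow cell held 9 vehicle tumours and nothing else, and the second held vehicle tumour 5R with all 23 treated tumours. Flow cell and treatment can therefore hardly be told apart in a comparison with vehicle. Of the markers of the cell line, Krt8 had 3.73 to 117 FPKM, whereas Epcam reached at most 0.203 FPKM, Cdh1 0.860 FPKM and Krt18 1.42 FPKM.

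The mRNA ends that set the replication-dependent genes apart were looked for in the GENCODE M21 transcripts (GRCm38). A 16-base form was sought that starts with GG, ends with CC, has the pattern TTNT at bases 6 to 9 with A at base 11, and pairs its first 6 with its last 6 bases, with G to T pairs allowed. It was found in 41 of the 60 replication-dependent genes with a transcript to search (Hist1h2bh and Hist1h2bm had none), in 1 of 9 variants (H2afx) and in 155 of all 55450 genes (0.280%). The absence of a match can mean only that an annotated transcript stops short of the stem-loop. The commonest forms were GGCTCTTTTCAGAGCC in 22 genes, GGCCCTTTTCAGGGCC in 7 genes and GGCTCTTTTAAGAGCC in 5 genes. These examples show the form in H3, H2B, H4 and H1 genes and in the single variant (none was found in Hist1h2ah or Hist1h2ai), with the stem-loop in capitals and 4 bases on each side, in the sense strand as DNA.
Hist1h3a: caaaGGCTCTTTTCAGAGCCacac
Hist1h3c: aaaaGGCTCTTTTAAGAGCCacct
Hist1h3g: taaaGGCTCTTCTTAGAGCCaccc
Hist1h2bk: caaaGGCTCTTTTAAGAGCCacta
Hist1h4d: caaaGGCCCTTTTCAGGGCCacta
Hist1h4i: taaaGGCCCTTTTTAGGGCCacca
Hist1h1c: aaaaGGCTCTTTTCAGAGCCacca
H2afx: caaaGGCCCTTTTAAGGGCCacca
The outer pairs GGC and GCC were the same in all 8 genes shown, which differed in the next pair and in the loop. The annotated transcript ran on for 840 bases after the stem-loop in Hist1h1c, 822 in H2afx and 770 in Hist1h4d, and for 37 bases in Hist1h3a.

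Promoter motifs of the histone genes differed between families. RefSeq promoter sequences (GRCm38.p6) matched 55 replication-dependent genes and 8 variants. In the 250 bases before the start, the octamer ATTTGCAT (either strand) occurred in 7 of 14 H2B and 6 of 15 H2A promoters, in none of the H1, H3 and H4 promoters (0 of 5, 0 of 9 and 0 of 12) and in 1.81% of all 27025 promoters. CCAAT (either strand) occurred in 45 of 55 replication-dependent promoters (81.8%), in 5 of 8 variant promoters and in 37.5% of all. By family, it occurred in 3 of 12 H4 promoters (25%), in 8 of 9 H3 promoters and in all 5 H1, 15 H2A and 14 H2B promoters. TATAAA (given strand) occurred in 23 of 55 replication-dependent promoters, in 1 of 8 variant promoters (H3f3b) and in 8.94% of all. The octamer and CCAAT can overlap by the letters AT. In 7 pairs of genes read in opposite directions the upstream windows overlapped, and each pair was an H2A with an H2B gene.

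The sequence before Hist1h2ah (chr13:22035644-22035893, minus strand, GRCm38.p6) shows such a shared promoter: the last 177 bases as printed, next to the start of Hist1h2ah, also lie before Hist1h2bk on the other strand. Hist1h3c (chr13:23745522-23745771, minus strand) and H3f3b (chr11:116024505-116024754, minus strand) stand for a replication-dependent and a variant H3 promoter. Capitals mark the 3 motifs on either strand as searched.
Hist1h2ah: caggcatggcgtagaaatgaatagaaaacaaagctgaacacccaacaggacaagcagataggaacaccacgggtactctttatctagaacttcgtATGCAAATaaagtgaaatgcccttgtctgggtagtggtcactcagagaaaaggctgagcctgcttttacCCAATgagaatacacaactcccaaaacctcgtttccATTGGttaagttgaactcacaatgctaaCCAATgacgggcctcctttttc
Hist1h3c: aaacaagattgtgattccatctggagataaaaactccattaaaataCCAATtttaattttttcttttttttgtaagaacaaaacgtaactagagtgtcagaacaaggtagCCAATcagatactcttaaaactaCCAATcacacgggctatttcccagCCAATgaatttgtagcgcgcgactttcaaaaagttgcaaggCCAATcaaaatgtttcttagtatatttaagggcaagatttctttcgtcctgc
H3f3b: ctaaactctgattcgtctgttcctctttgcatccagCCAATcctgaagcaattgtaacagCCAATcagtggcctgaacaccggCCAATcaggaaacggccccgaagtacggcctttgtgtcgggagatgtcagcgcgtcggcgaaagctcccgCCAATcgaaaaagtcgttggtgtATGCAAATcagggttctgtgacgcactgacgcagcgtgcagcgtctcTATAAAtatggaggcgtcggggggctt
H3f3b, a variant, held all 3 motifs in this window, so the motifs do not divide the classes.

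Estimates for most replication-dependent histone mRNAs were lower in ESK981 tumours than in vehicle tumours, few passed the test, and the low values came mainly from ESK981 mice 1 and 2. Of the 62 genes 6 fell and 0 rose at a limma adjusted p under 0.05, and 0 of the 9 variants passed. The 6 include Hist1h2ba, which reached the level minimum in no ESK981 tumour, so its low value was built into its selection. In this comparison 14.4% of all genes passed in either direction and 5.43% fell, so 6 of 62 is not far above the share that fell among all genes. At an unadjusted p under 0.05 were 19 of 62, against 31.8% of all genes. With a term for flow cell, which rests on vehicle tumour 5R alone, 2 Hist genes were called higher and none lower, and the Hist median was 0.15 against 0.60 for all genes. The median log2 fold change of the 62 genes was -0.77, with 58 of 62 below 0, against 0.11 for all genes tested and -0.20 for the variants. Since the table holds whole tumours, fewer cells in S phase and less histone mRNA per cell cannot be told apart.

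**Figure D1:**
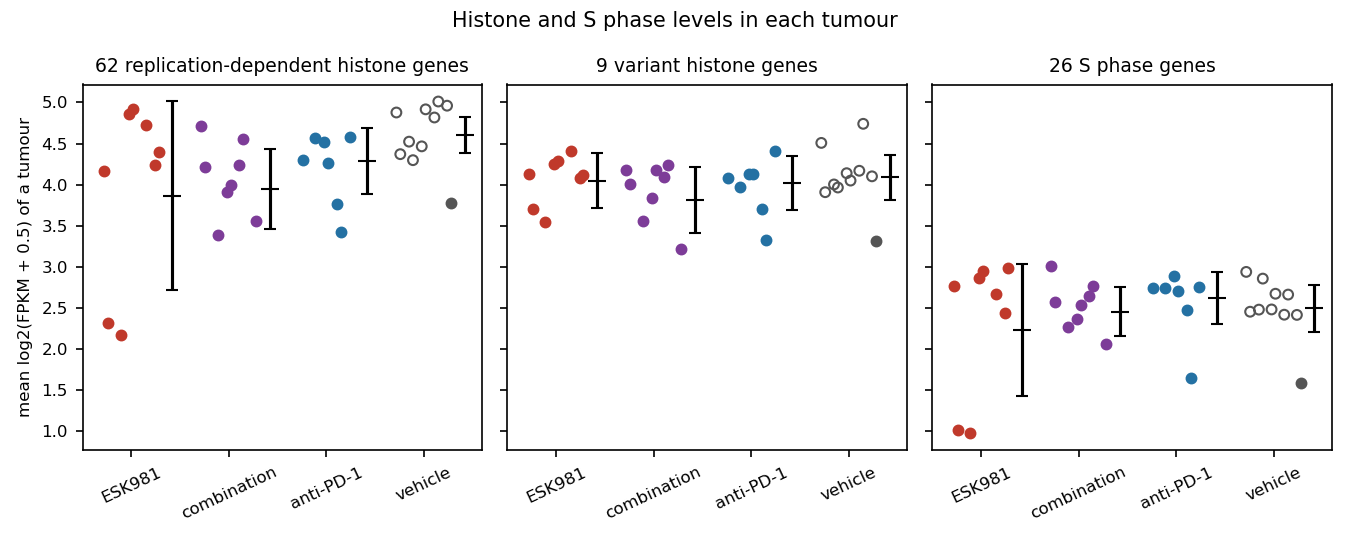
Mean log2(FPKM + 0.5) over the 62 replication-dependent, 9 variant and 26 S phase genes in each of 33 tumours, by group. Open points are the 9 vehicle tumours on their own flow cell, filled points share the other flow cell, and bars give the mean and SD of 5 mouse means. ESK981 tumours 1R and 2R, at 2.32 and 2.17, lie below every other tumour for the replication-dependent genes.

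H3 was the family with the lowest median, -1.03, and 3 of its 11 genes fell. Hist1h3a (chr13:23761853-23762386, minus strand, GRCm38) had 6.16, 2.40, 28.5, 21.7 and 11.8 FPKM in the 5 ESK981 mice, against 25, 29.7, 30.3, 34.0 and 21.8 FPKM in the vehicle mice. Its log2 fold change was -1.39 ± 0.44 (SE, limma adjusted p = 0.0415). ESK981 mice 1, 2 and 5 were below every vehicle mouse, mouse 4 was just below the lowest of them and mouse 3 was within their range, so the groups overlapped.

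Hist1h3c had 13.8, 3.13, 65.9, 46.3 and 25.4 FPKM in ESK981 mice, against 49.6, 55.5, 69.2, 73.7 and 56.2 FPKM in vehicle mice, a log2 fold change of -1.61 ± 0.52 (limma adjusted p = 0.0429). Hist1h3h had 8.90, 3.73, 51.0, 39.8 and 20.1 FPKM in ESK981 mice, against 41.3, 45, 57.5, 61.3 and 41.0 FPKM in vehicle mice, a log2 fold change of -1.49 ± 0.48 (limma adjusted p = 0.0417). Both genes, which were chosen after their values were seen, followed the same order of ESK981 mice: mouse 3 highest, then 4, 5 and 1, and mouse 2 lowest.

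H2A had a median of -0.90 and 2 of 17 genes that fell. Hist1h2ah (chr13:22035164-22035568, minus strand) had 4.15, 0.204, 20.4, 12.3 and 7.57 FPKM in ESK981 mice, against 16.4, 17.5, 20.8, 20.003 and 18.2 FPKM in vehicle mice, a log2 fold change of -1.78 ± 0.57 (limma adjusted p = 0.0417). Hist1h2ai (chr13:21716422-21716814, plus strand) had 6.48, 1.37, 33.9, 21.1 and 13.1 FPKM in ESK981 mice, against 25.7, 29.5, 35.5, 33.5 and 29.6 FPKM in vehicle mice, a log2 fold change of -1.58 ± 0.50 (limma adjusted p = 0.0410). Again only ESK981 mouse 3 reached the vehicle range. Their partners across the shared promoters, Hist1h2bk and Hist1h2bl, had log2 fold changes of -0.98 ± 0.53 and -0.81 ± 0.44, which did not pass (limma adjusted p = 0.212 and 0.214).

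H2B, H4 and H1 had medians of -0.69, -0.73 and -0.55. The single H2B gene that fell was Hist1h2ba, a testis H2B, with 0.209, 0.108, 0.303, 0.188 and 0.295 FPKM in ESK981 mice, against 1.07, 0.512, 0.663, 0.559 and 0.493 FPKM in vehicle mice. The log2 fold change was -0.66 ± 0.18 (limma adjusted p = 0.0222). These levels rest on a median of 3 fragments per tumour. It passed the minimum through 6 vehicle, 2 combination and 2 anti-PD-1 tumours and 0 ESK981 tumours, so a low value with ESK981 was built into its selection.

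The most abundant histone mRNAs encoded H4. Hist1h4d had 143, 71.2, 391, 329 and 250 FPKM in ESK981 mice, against 292, 263, 326, 349 and 315 FPKM in vehicle mice, and its log2 fold change of -0.61 ± 0.36 did not pass (limma adjusted p = 0.256). ESK981 mouse 3 was above and mouse 2 far below all vehicle mice. Hist1h4f, Hist1h4k and Hist1h4h, the next in level at 113 to 132 FPKM over all mice, had log2 fold changes between -0.96 and -0.73, and Hist1h4i had -0.54 ± 0.31, none past the threshold.

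Some Hist genes had estimates nearer 0 than the Hist median, among them 3 that were set by name. Hist1h1c, the linker histone H1.2, had 41.9, 27.5, 55.5, 71.5 and 56.3 FPKM in ESK981 mice, against 45, 36, 41.3, 62.9 and 47.8 FPKM in vehicle mice, a log2 fold change of 0.09 ± 0.26 (limma adjusted p = 0.851). Hist2h2be had a log2 fold change of 0.22 ± 0.25 and Hist1h2bc of -0.25 ± 0.31. These 3 genes are known also to make polyadenylated mRNA, as background. Genes with the stem-loop at most 454 bases from the annotated end had a median log2 fold change of -0.85 (31 genes, -1.61 to 0.02). Those whose transcript ran on for more than 500 bases had -0.38 (10 genes, -1.14 to 0.09). Those searched with none found had -0.67 (19 genes, -1.78 to 0.22). The ranges overlapped, and with the combination the medians were -0.77, -0.57 and -0.57 in the same order. The difference between these sets was not tested.

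By cluster, the 51 Hist1 genes, of which 49 were placed on chromosome 13, had a median log2 fold change of -0.85 and 6 that fell, and the 8 Hist2 genes on chromosome 3 had -0.37 and 0 that fell (0 at an unadjusted p under 0.05). The difference between clusters was not tested.

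**Figure D2:**
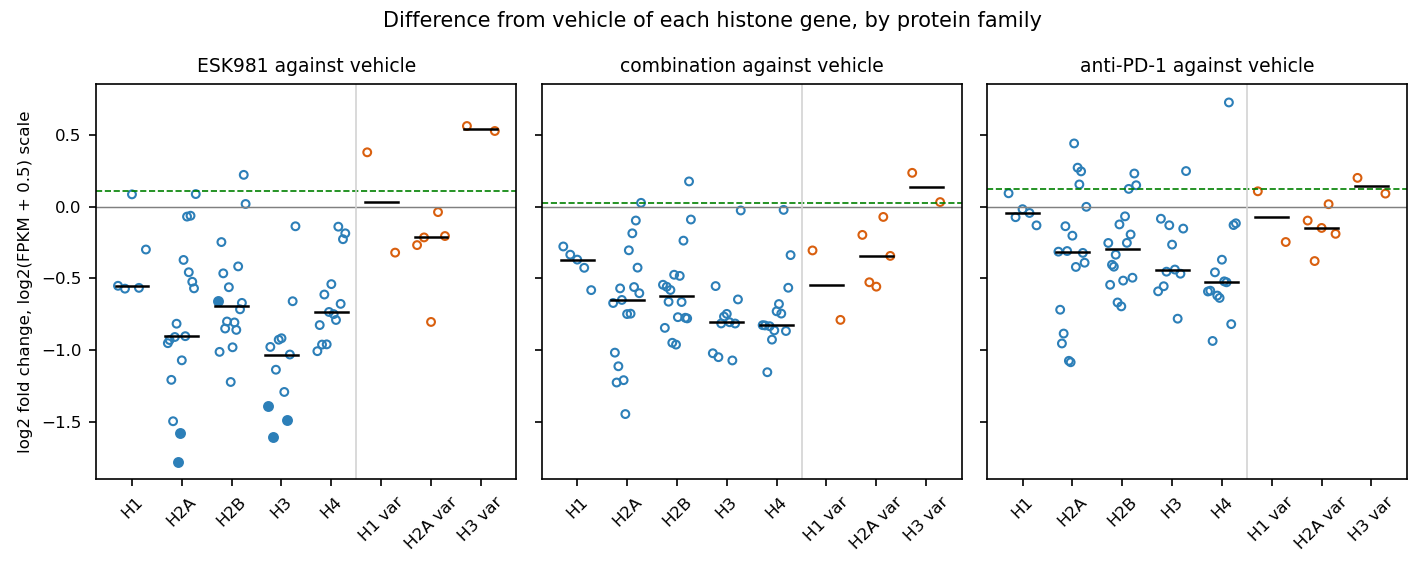
Log2 fold change on the log2(FPKM + 0.5) scale of each of the 71 genes against vehicle, by protein family, for ESK981, the combination and anti-PD-1. Filled points passed the limma test, black bars are family medians, the dashed green line is the median of all genes tested, and variants stand right of the grey line. With ESK981 the H3 genes named Hist have a median of -1.03 while H3f3a and H3f3b lie at 0.56 and 0.53.

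The H3.3 genes went the other way in these estimates. H3f3a and H3f3b encode the same protein, H3.3, which is placed outside replication. H3f3a (chr1:180800832-180813943, minus strand) had 22.4, 19.9, 15.4, 25.5 and 21.9 FPKM in ESK981 mice, against 15.6, 12.9, 15.2, 17.3 and 10.2 FPKM in vehicle mice, and H3f3b (chr11:116021912-116027962, minus strand) had 109, 95.6, 80.1, 128 and 107 FPKM, against 76.7, 63.2, 67.5, 93.3 and 62.4 FPKM. The log2 fold changes were 0.56 ± 0.22 and 0.53 ± 0.21 and did not pass (limma adjusted p = 0.0842 and 0.0849). Unlike the Hist genes, ESK981 mice 1 and 2 were not the lowest for H3f3a or H3f3b, and leaving out tumours 1R and 2R left the estimates at 0.56 and 0.54. Without vehicle 5R and anti-PD-1 4R, the shallowest libraries, and combination 5R, with the most ribosomal RNA, both passed (0.49 and 0.47, limma adjusted p = 0.0403 and 0.0363). They also passed over single tumours (0.54 and 0.51, limma adjusted p = 0.0437 and 0.0318). They did not pass with median-of-ratios scaling (0.43 and 0.39, limma adjusted p = 0.0526 and 0.0569), no filter, no trend or the other pseudocounts. Leaving out 1 mouse, H3f3a never passed and H3f3b passed only without combination mouse 5 (limma adjusted p = 0.0356). The estimates were 1.30 and 1.004 with the flow cell term, which rests on vehicle tumour 5R alone and also raised the median of all genes.

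The share of H3.3 in all H3 mRNA (by summed FPKM) was 57.9, 74.8, 19.0, 32.4 and 41.4% in ESK981 mice, against 22.9, 19.6, 17.4, 20.4 and 18.9% in vehicle mice. The mean was 45.1 ± 21.8% with ESK981 (SD, n = 5), 32.9 ± 4.66% with the combination, 26.8 ± 4.45% with anti-PD-1 and 19.8 ± 2.06% with vehicle. Every combination mouse, at 26.3 to 37.4%, was above every vehicle mouse, whereas ESK981 mouse 3 and anti-PD-1 mouse 2, at 19.0 and 21.9%, were within the vehicle range of 17.4 to 22.9%. The share of H2afz and H2afv in H2A mRNA was 18.7 ± 6.34%, 15.3 ± 1.64%, 13.1 ± 1.71% and 12.4 ± 0.974% in the same order of groups, that of H2afx in H2A mRNA 7.71 ± 0.706%, 8.66 ± 0.776%, 8.95 ± 0.686% and 8.17 ± 0.798%, and that of H1f0 in H1 mRNA 11.8 ± 8.12%, 7.30 ± 1.10%, 7.61 ± 1.91% and 6.65 ± 0.489%. These shares were not tested.

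**Figure D3:**
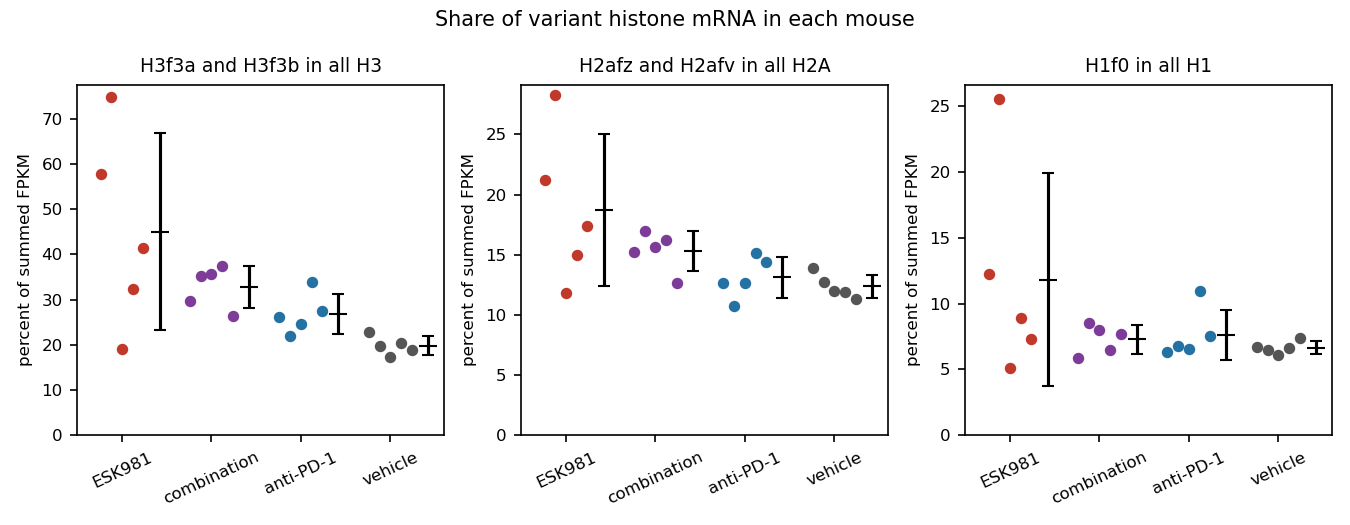
Share of H3f3a and H3f3b in all H3, of H2afz and H2afv in all H2A and of H1f0 in all H1, in percent of summed FPKM of the kept genes, 1 point per mouse with the mean and SD of 5 mice beside it. The H3.3 share spans 19.0 to 74.8% in ESK981 mice and 17.4 to 22.9% in vehicle mice.

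None of the other variants passed the test. H1f0, a linker histone of resting and differentiated cells, had 36.3 ± 6.75 FPKM with ESK981 and 27.8 ± 4.69 FPKM with vehicle (SD, n = 5 mice each), a log2 fold change of 0.38 ± 0.17 (limma adjusted p = 0.139). H2afx, the H2A form phosphorylated at DNA breaks and the variant with a stem-loop, had 15.3, 6.70, 46.2, 32.0 and 22.4 FPKM with ESK981, against 36.7, 34.7, 40.0, 44.9 and 25.7 FPKM with vehicle (-0.80 ± 0.36, limma adjusted p = 0.134). It was the variant with the lowest estimate and showed the order of mice seen in the Hist genes. H2afz and H2afv, which encode H2A.Z, had -0.20 ± 0.29 and -0.21 ± 0.19, H2afj -0.27 ± 0.19, H1fx -0.32 ± 0.36, and H2afy, which encodes macroH2A, -0.04 ± 0.17.

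The low ESK981 values came from particular tumours. The mean log2(FPKM + 0.5) over the 62 Hist genes was 2.32 in ESK981 tumour 1R and 2.17 in tumour 2R, against 4.16 to 4.92 in the other 6 ESK981 tumours and 3.78 to 5.01 in vehicle tumours. The left tumour of the same mouse as 1R, at 4.16, was thus 1.84 higher, the widest gap between flanks in any of the 13 mice with both (median 0.324, and 0.171 for the variants). Tumours 1R and 2R were also lowest for 26 S phase genes (1.02 and 0.97, against 2.44 to 2.98 in the other ESK981 tumours) and for 12 G2 and mitosis genes (0.79 and 0.86, against 3.47 to 3.89). Without them 0 of 62 Hist genes passed, and the median log2 fold change was -0.05. The Hist genes called with all tumours kept estimates between -0.75 (Hist1h3h) and -0.49 (Hist1h2ba). Leaving out the lowest tumours raises the ESK981 values by construction, and mouse 2 drops out with 2R, its only tumour.

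**Figure D4:**
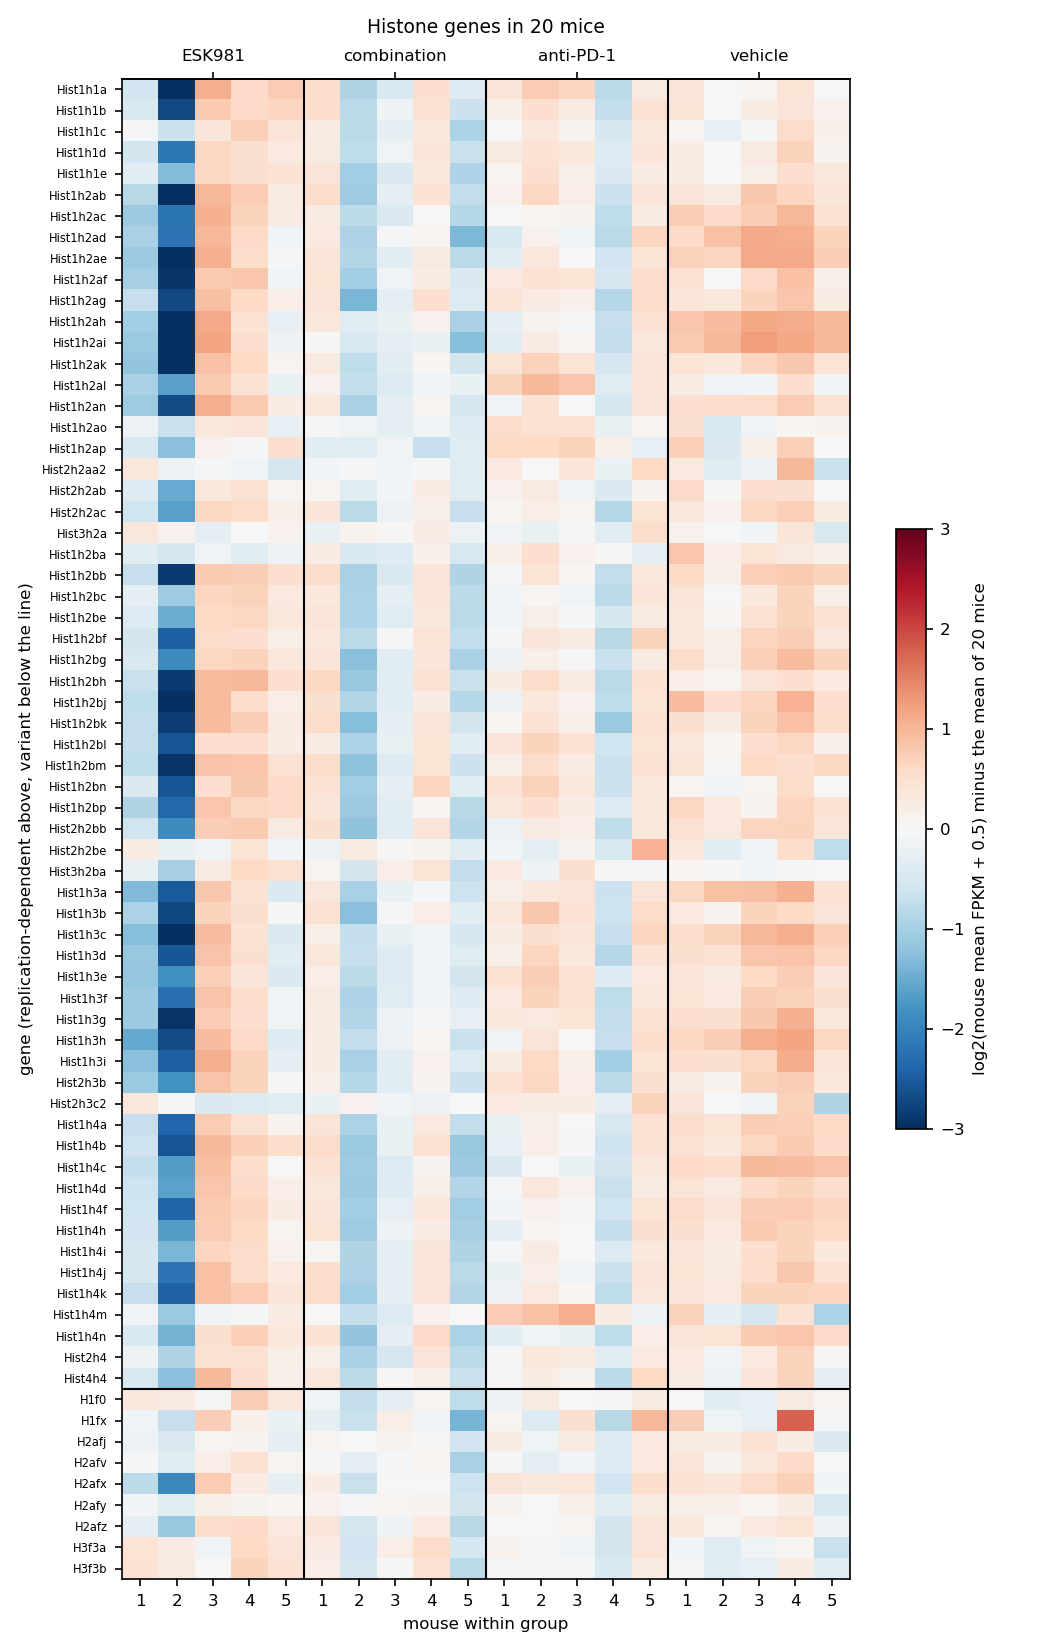
Log2(mouse mean FPKM + 0.5) of each of the 71 genes minus its mean over 20 mice, with colour capped at 3, by group and mouse. Replication-dependent genes are above the line and variants below, and ESK981 mouse 2 is low in nearly all Hist rows but not in H3f3a or H3f3b.

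The spread between mice showed the same split. The median SD of a Hist gene on the log2 scale was 1.30 in ESK981 mice, 0.567 in combination mice, 0.440 in anti-PD-1 mice and 0.255 in vehicle mice. That of a variant was 0.268, 0.422, 0.341 and 0.289. For Hist1h3a the SD was 1.40 in ESK981 mice and 0.332 in vehicle mice. The limma test took a single spread per gene over all 4 groups, so its SEs and p-values do not reflect this difference. The ESK981 calls rest on that shared spread.

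In combination tumours the Hist genes were also lower in estimate but none passed. Of the 62, 0 were called, with 16 at an unadjusted p under 0.05, and 0 of 9 variants were called, with 2 at an unadjusted p under 0.05, where 0.606% of all genes passed and 12.4% were at the unadjusted level. The median log2 fold change against vehicle was -0.67, with 60 of 62 below 0, against 0.03 for all genes and -0.30 for the variants. For 18 Hist genes, 8 of them H3 genes, every combination mouse was below every vehicle mouse, as in 1.58% of all genes (1.97% did not overlap in either direction). Hist1h3a had 20.5, 7.97, 14, 15.6 and 10.2 FPKM in combination mice, each below all vehicle mice, and a log2 fold change of -1.02 ± 0.44 (limma adjusted p = 0.348). Hist1h4c, chosen after its values were seen, had the smallest adjusted p, 0.184 (limma), with a log2 fold change of -1.15 ± 0.37.

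In anti-PD-1 tumours 0 of 62 Hist genes passed, with 5 at an unadjusted p under 0.05, and 0 of 9 variants passed, with 0 at that level, where 0.783% of all genes passed and 13.2% were at the unadjusted level, so 5 of 62 is below that share. The median log2 fold change was -0.33, with 52 of 62 below 0, against 0.13 for all genes and -0.10 for the variants. Hist1h3a had 18.4, 20.1, 21.1, 10.1 and 21.1 FPKM in anti-PD-1 mice and a log2 fold change of -0.59 ± 0.44 (limma adjusted p = 0.576). Hist1h2ah and Hist1h2ai had log2 fold changes of -1.07 ± 0.57 and -1.08 ± 0.50 (limma adjusted p = 0.426 and 0.358). The 3 comparisons share the vehicle mice.

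The combination and anti-PD-1 tumours shared a flow cell. Per the column headers they had no lane in common, and only combination tumour 1L shared a lane with ESK981 tumours. The part of lane was not tested. Between them 0 of 62 Hist genes and 0 of 9 variants passed, with 4 and 1 at an unadjusted p under 0.05, where 0% of all genes passed and 5.94% were at the unadjusted level, about the share of the Hist genes. The median was -0.33 for the Hist genes, with 61 of 62 below 0, -0.15 for the variants and -0.09 for all genes. Between the combination and ESK981, also on that flow cell, 0 of 62 and 0 of 9 passed, with 0 and 2 at an unadjusted p under 0.05, where 0% of all genes passed and 7.74% were at the unadjusted level, and the medians were 0.10 and -0.31. The interaction of ESK981 and anti-PD-1 called 0 of 62 and 0 of 9, with 0 and 1 at an unadjusted p under 0.05, where 0.0252% of all genes passed and 18.2% were at the unadjusted level.

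The Hist genes were then set against S phase. The Hist mean minus the S phase mean was 1.64 ± 0.38 in ESK981 mice, 1.49 ± 0.23 in combination mice, 1.66 ± 0.14 in anti-PD-1 mice and 2.10 ± 0.28 in vehicle mice (log2, SD, n = 5 each). It was 1.12 to 2.06 in the 23 treated tumours and 1.44 to 2.54 in the 9 vehicle tumours on their own flow cell. Vehicle tumour 5R, on the flow cell of the treated tumours, had 2.19 and was the shallowest library. It is a single tumour, and the part of flow cell and depth in these differences was not tested. For the variants the same difference was 1.82 ± 0.50, 1.36 ± 0.16, 1.40 ± 0.16 and 1.59 ± 0.23.

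**Figure D5:**
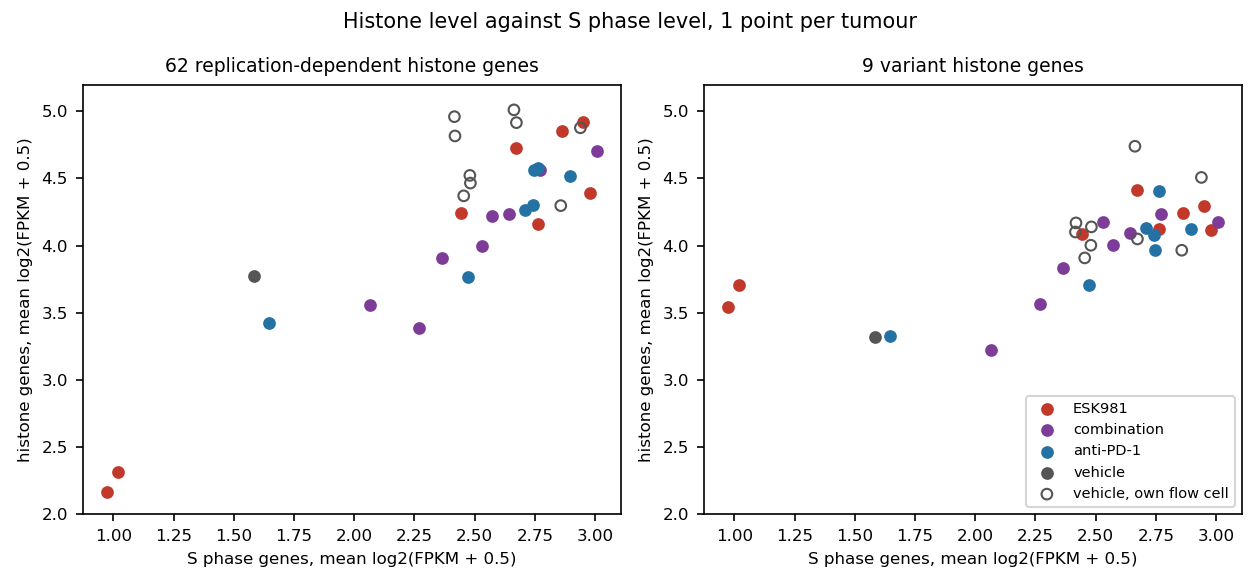
Mean log2(FPKM + 0.5) of the 62 replication-dependent and the 9 variant histone genes against that of 26 S phase genes, 1 point per tumour, with open points for the vehicle tumours on their own flow cell. Most vehicle tumours lie above treated tumours of the same S phase level in the left panel, and ESK981 tumours 1R and 2R are lowest on both axes there, whereas their variant means, 3.71 and 3.55, lie within the range of the other tumours.

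Few genes of the S phase list were called, though tumours 1R and 2R were lowest for it. Of 26 genes 1 fell with ESK981, where 5.43% of all genes fell. This was E2f1, a transcription factor of S phase entry. E2f1 had 1.46, 0.918, 2.74, 1.72 and 1.84 FPKM in ESK981 mice, against 3.49, 3.88, 3.17, 2.84 and 1.92 FPKM in vehicle mice (-0.71 ± 0.19, limma adjusted p = 0.0210). It did not pass without tumours 1R and 2R (-0.44, limma adjusted p = 0.0962), and with the flow cell term its estimate was -0.01 (limma adjusted p = 0.981). The list's median was -0.23 with ESK981, -0.05 with the combination and 0.16 with anti-PD-1, with 0 called in the last 2. In the same order, the medians of all genes were 0.11, 0.03 and 0.13. Pcna, the replication clamp, had -0.20 ± 0.27 with ESK981. Of 12 G2 and mitosis genes 0 were called in these comparisons, with 0 at an unadjusted p under 0.05 in each, and medians of -0.25, -0.06 and 0.17. Mki67, a marker of cycling cells, had -0.21 ± 0.45 with ESK981.

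Among 15 tested genes for histone transcription and mRNA end formation, 1 rose with ESK981, where 14.4% of all genes passed in either direction. Npat, the coactivator of histone genes that cyclin E with CDK2 switches on, had 7.70, 6.86, 6.55, 7.50 and 7.53 FPKM in ESK981 mice, against 5.95, 4.81, 5.23, 5.42 and 3.82 FPKM in vehicle mice (0.50 ± 0.17, limma adjusted p = 0.0486). The call was lost without tumours 1R and 2R at the same size (0.52, limma adjusted p = 0.0629), and the estimate was 1.13 with the flow cell term (limma adjusted p = 0.0038). Slbp had 5.67 ± 1.77 FPKM with ESK981 and 5.07 ± 0.654 FPKM with vehicle (0.10 ± 0.20, limma adjusted p = 0.778). Lsm10 and Lsm11, of the U7 particle that cuts histone mRNA, had -0.08 ± 0.15 and -0.11 ± 0.16, and Casp8ap2, a cofactor in that cut, 0.16 ± 0.19. With the combination and with anti-PD-1 0 of the 15 genes were called.

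Among 19 histone chaperones and exchange factors, 1 rose with ESK981, where 14.4% of all genes passed in either direction. Atrx, which with Daxx places H3.3 at repeats, had 12.9, 11.6, 10.8, 12.5 and 12.3 FPKM in ESK981 mice, against 9.58, 7.77, 8.09, 7.39 and 6.72 FPKM in vehicle mice (0.59 ± 0.14, limma adjusted p = 0.0120). It also passed without tumours 1R and 2R (0.61, limma adjusted p = 0.0284) and with the flow cell term (1.15, limma adjusted p = 0.00125). Daxx had -0.18 ± 0.13, Hira, which places H3.3 in genes, 0.06 ± 0.15, and Asf1a 0.48 ± 0.20 (limma adjusted p = 0.106). Cenpa, the H3 form of centromeres, had -0.20 ± 0.42. The replication partners Asf1b and Chaf1a, a subunit of CAF-1, had -0.76 ± 0.36 and -0.64 ± 0.28, which did not pass (limma adjusted p = 0.155 and 0.122).

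Other measures moved with the comparison of ESK981 and vehicle, where 5.43% of all genes fell and 14.4% passed in either direction. Of 5 T cell markers 4 fell (median -1.05), of 5 macrophage markers 3 fell (-0.85), of 5 fibroblast markers 4 fell (-1.39), of 13 mitochondrially encoded genes 12 fell (-1.41) and the 3 genes on ribosomal RNA sequence all fell (-2.16). Of 3 endothelial markers 1 rose and of 2 red blood cell markers 1 rose, and 0 of 4 skeletal muscle genes passed. Their part in the histone values was not tested. Copies also limit single genes: in the 60 Hist genes with an annotated transcript, a median of 54.5% of the 50-base stretches occurred in another gene's transcript, over 50% in 31 of 60, against 7.0% for the variants. It was 92.1% for Hist1h2ah, 90.1% for Hist1h2ai and 93.9% for Hist1h3h, so reads of these genes may be lost or counted for a copy. The share was 49.5% for Hist1h3a and 47.0% for Hist1h3c.

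At the minimum level, Hist1h2ao and Hist1h2ba were just inside, with a fifth-highest FPKM of 0.603 and 0.780, and Hist1h2br and Hist1h2bq just outside, with 0.256 and 0.202. Of the 71 genes 61 were at or above the minimum in every tumour.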

How the data were processed

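RNA-seq of 33 tumours from 20 mice was used. The deposited values are FPKM per gene, made by the authors. STAR, featureCounts and mm10 are named in the submitters' processing notes; tool versions, annotation and strand setting: not given in the sources used here. For genes whose identifier and version match GENCODE M21, FPKM times gene length gave whole fragments within 0.01 for 100% of the values of up to 20 fragments, from which depth was read; no count model was fitted. The 2 tumours of a mouse, where both were sequenced (13 mice), were averaged. Genes with at least 0.5 FPKM in at least 5 tumours (15846 of 48795) were tested on log2(FPKM + 0.5) with limma 3.58.1 (R 4.3.3), two-sided, with a mean-variance trend, all 4 groups in one fit (16 residual degrees of freedom) and Benjamini-Hochberg adjustment over all genes. Calls were made below an adjusted p of 0.05. Fold changes on this scale understate changes of low genes. The fit was tested on simulated data.

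The histone genes and the other lists were chosen with earlier results of these data known, so counts over them are descriptions. Genes given by mouse were, in each class, the 4 with the highest level and the 4 with the smallest adjusted p, plus genes set by name; Hist1h3c, Hist1h3h, Hist1h4c, Hist1h2bk and Hist1h2bl were added after their values were seen. Gene positions and transcripts are from GENCODE M21 (GRCm38), where 49 of 71 identifiers matched with their version, and promoters from RefSeq (GRCm38.p6). Alternatives were other pseudocounts, no filter, no trend, median-of-ratios scaling, single tumours, a flow cell term, and leaving out tumours or mice. Results for some marker genes are not reported here.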

Additional observations from a re-analysis of the deposited data

Results flagged for a closer look

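Of 92 sets of 5 mice examined, 7 held a mouse set apart from the other 4 (gap over range above 0.71), where chance gives about 1 in 20. The low ones were H2afj in combination mouse 5 (4.82 FPKM), H2afx in anti-PD-1 mouse 4 (18.1 FPKM), H2afy in combination mouse 5 (6.49 FPKM) and in vehicle mouse 5 (7.03 FPKM), Hist1h3a in anti-PD-1 mouse 4 (10.1 FPKM) and the mean log2 value of the replication-dependent genes in anti-PD-1 mouse 4 (3.59). The high one was Hist2h2be in anti-PD-1 mouse 5 (5.13 FPKM).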

How the results depend on the processing

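Several medians changed sign under the alternatives, among them those of both classes against vehicle with the flow cell term. With ESK981 against vehicle, 6 replication-dependent genes were called. The count was 1 with no filter, Hist1h2ba, which was also the only call without ESK981 mouse 5. The count was 13 with median-of-ratios scaling, 11 with single tumours, 11 without 3 tumours (combination 5R, anti-PD-1 4R and vehicle 5R), and 0 without ESK981 1R and 2R. With a flow cell term 2 were called higher (Hist2h2be and Hist3h2a), a reversal that rests on vehicle 5R alone. Leaving out 1 mouse gave 0 to 18: 0 without ESK981 mouse 1, ESK981 mouse 2 or vehicle mouse 1, 18 without ESK981 mouse 3, 1 without ESK981 mouse 5 or vehicle mouse 2, 3 or 4, 2 without anti-PD-1 mouse 1 or vehicle mouse 5, and 3 without anti-PD-1 mouse 3. Variants called were 3 with median-of-ratios scaling, all lower, and 3 with the flow cell term, all higher. Single tumours called 2, both higher (H3f3a and H3f3b). Leaving out the 3 tumours called 4, with H3f3a and H3f3b higher and the others lower. Leaving out 1 mouse called 0 to 1, which was higher without combination mouse 5 and lower without ESK981 mouse 3. In the combination against vehicle, median-of-ratios scaling called 1 replication-dependent gene and 1 variant, both lower. The flow cell term called 1 and 3, all higher. Leaving out ESK981 1R and 2R, which changes the shared spread, called 2 and 0, both lower. In anti-PD-1 against vehicle, median-of-ratios scaling called 1 variant lower and the flow cell term 2 genes of each class higher. In the interaction the flow cell term called 2 genes of each class, all lower. Medians of replication-dependent genes and variants with the flow cell term were 0.15 and 0.74 (ESK981), 0.26 and 0.63 (combination), 0.41 and 0.71 (anti-PD-1) and -0.37 and -0.86 (interaction). Without ESK981 1R and 2R the replication-dependent medians were -0.047 (ESK981 against vehicle), -0.63 (combination against ESK981) and -0.29 (interaction), and the variant interaction median was -0.40. Leaving out 1 mouse moved the replication-dependent median between -1.03 and -0.27 (ESK981), -0.85 and -0.51 (combination), -0.44 and -0.17 (anti-PD-1), -0.48 and -0.17 (combination against anti-PD-1), -0.38 and 0.34 (combination against ESK981) and -0.03 and 0.74 (interaction). Median-of-ratios scaling shifted log2 fold changes against vehicle by -0.14 (ESK981), -0.03 (combination) and -0.15 (anti-PD-1). The causes were not tested. No paired analysis was possible because mouse numbers only name mice within a group.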
